A study of Sus scrofa with 70 samples.

Results

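Genic isoforms are full-length transcripts that overlap an annotated gene on its own strand and share no splice site with it. Here they are the isoforms that the authors' run of SQANTI3, a classifier of long-read transcripts, placed in its genic category against the Ensembl pig annotation. The category held 1334 of the 110996 non-redundant isoforms, under 916 gene labels. Of these labels 707 had 1 genic isoform and 27 had at least 5. Samples came from boars aged 12 months, either of the Banna mini-pig inbred line (BMI) or of Diannan small-ear pigs (DSE), and no group was treated. The organs were the testis, the epididymis and the bulbourethral, prostate and vesicular glands, all called glands here. PacBio Iso-seq, which reads whole cDNA molecules, was run on 1 library per breed and gland (10 libraries), and Illumina RNA-seq on 3 libraries per breed and gland (30 libraries). The labels do not say which libraries came from the same animal or whether animals were pooled, so p-values measure the spread between these libraries, which may be technical in part.

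Full-length libraries start when an oligo-dT primer binds the polyA tail of an mRNA. The same primer can bind a run of adenines inside a transcript, and the genome then shows A after the apparent 3′ end. Reverse transcriptase can also jump between copies of a short repeat and leave a gap that looks like an intron, which SQANTI3 marks as RTS (reverse transcriptase template switching). Most true introns start with GT and end with AG, and GC-AG and AT-AC count as canonical too. Most mRNA ends follow a polyA motif such as AATAAA. An isoform can also look foreign to its gene because the annotated gene model is short: a gene annotated with a single exon has no splice site that any spliced transcript could share.

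The genic isoforms fell into 2 classes by this last property. The host was annotated with a single exon for 608 isoforms (337 gene labels) and with several exons, drawn as multi-exon host in the plots, for 726 (579 labels). No genic isoform shared a splice donor or acceptor with any Ensembl transcript. Single-exon genes made up 30.8% of the 35670 annotated genes and 38.0% of the 935 host genes. A genic isoform was found for 3.23% of single-exon genes and for 2.35% of genes with several exons. Isoforms of single-exon hosts held 12290 of the 16202 genic full-length reads, and isoforms of several-exon hosts held 3912.

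The 20 genomic bases after the 3′ end are shown for 6 isoforms, because their A content is the feature in which the classes differed most. All 6 have single-exon hosts, so the A runs shown are not examples of the several-exon class. They are read 5′ to 3′ on the strand of the isoform from the Sscrofa11.1 genome, and capitals mark runs of at least 6 A.
IRGC PB.15744.5, chr6:50547190-50547209 (+): aacccgactcgtatccatga
GJB2 PB.2804.1, chr11:773025-773044 (-): agagccccttctggtccctg
ZHX1 PB.12957.9, chr4:16128252-16128271 (+): attcaatattcatggcactt
ZHX1 PB.12957.1, chr4:16124391-16124410 (+): AAAAAAAAAAAAAAAAAAAA
ENSSSCG00000038099 PB.5984.6, chr14:39843137-39843156 (-): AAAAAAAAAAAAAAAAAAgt
CLDN22 PB.7163.3, chr15:44800082-44800101 (-): AAAAAAAAAAAAAAAAAAAc
Both ZHX1 isoforms begin at the same base, and the one that ends at the A run is the shorter. The bases deposited for 1311 of 1311 genic isoforms on assembled chromosomes were identical to this genome.

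Splice sites are shown for 3 isoforms, all of single-exon hosts, because the other features turn on them. Each line gives 10 bases on both sides of the start or of the end of an intron. For GJB2, capitals mark the first and the last pair of bases of the intron.
GJB2 PB.2804.1 intron start, chr11:779156-779175 (-): gctcccagcgGTaaggccgg
GJB2 PB.2804.1 intron end, chr11:775859-775878 (-): tcttttgcAGcgcagaccgt
For ZHX1 and TSSK2, capitals mark the run of bases found at both ends of the intron.
ZHX1 PB.12957.9 intron 4 start, chr4:16127391-16127410 (+): tTATTTTCAGTTTTTttttt
ZHX1 PB.12957.9 intron 4 end, chr4:16127670-16127689 (+): cTATTTTCAGTTTTTaaaat
TSSK2 PB.6175.1 intron start, chr14:50943420-50943439 (+): gagacctcaaGTGCGAGAAC
TSSK2 PB.6175.1 intron end, chr14:50944168-50944187 (+): gaaggcacagGTGCGAGAAC
The GJB2 intron was GT-AG, with 1 base shared by its ends. ZHX1 PB.12957.9 was marked RTS, and its intron 4 was TT-AG. TSSK2 PB.6175.1 carried a repeat of 10 bases and was not marked RTS, and its intron was GT-AG.

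A content after the 3′ end separated the host classes. At least 60% A, 12 or more of the 20 bases, followed 76.6% of isoforms of several-exon hosts (556 of 726, 95% Wilson interval 73.4 to 79.5). The same held for 35.0% of isoforms of single-exon hosts (213 of 608, 31.3 to 38.9). The several-exon class was higher in 10 of 10 libraries, by 36.1 to 54.6 percentage points. Over all other categories the share was 29.4%, and it was 58.2% for intergenic, 41.8% for antisense and 25.1% for NNC isoforms, which belong to a known gene and have a splice site that Ensembl lacks. Median A content was 80% in the several-exon class and 35% in the single-exon class, against 30% over the other categories. Isoforms are not replicates and many occur in several libraries, so no test was run and the intervals cover counting error alone.

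**Figure D1:**
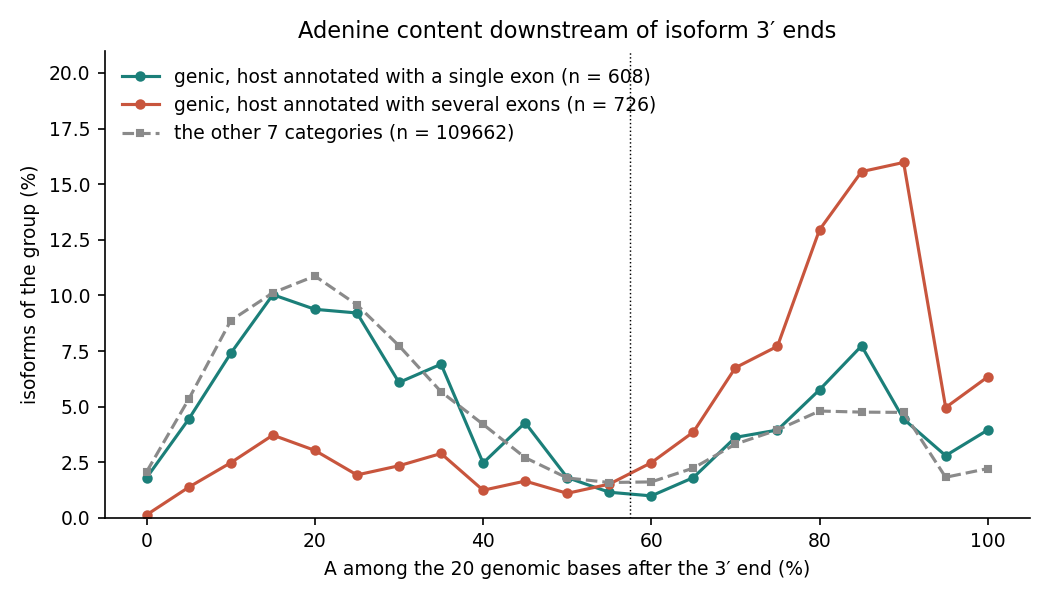
Share of isoforms (y axis, %) at each A content of the 20 genomic bases after the 3′ end (x axis, %), for genic isoforms of single-exon hosts (n = 608), genic isoforms of several-exon hosts (n = 726) and the other categories (n = 109662). The dotted line separates the 55% and 60% values, and 76.6% of the several-exon class lay to its right against 35.0% of the single-exon class.

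Adenine content followed where an isoform ended. Within the several-exon class, 477 isoforms (65.7%) ended inside an intron of the host, 201 (27.7%) downstream of it and 48 (6.61%) in an exon. Of the 477 that ended in an intron, 427 had at least 60% A (89.5%, 86.4 to 92.0), and 32.5% had a polyA motif. Of the 201 that ended downstream, 53.2% had at least 60% A and 57.2% had a motif. In the single-exon class 81.1% of isoforms ended downstream of the annotated exon, and 165 of those (33.5%, 29.4 to 37.7) had at least 60% A. The 5′ end lay upstream of the annotated host for 502 of 608 isoforms in the single-exon class (82.6%) and for 341 of 726 in the several-exon class (47.0%). By bases, isoforms of several-exon hosts were 17.1% exonic, 69.5% intronic and 13.4% outside the host, and isoforms of single-exon hosts were 49.7% exonic and 50% outside.

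**Figure D2:**
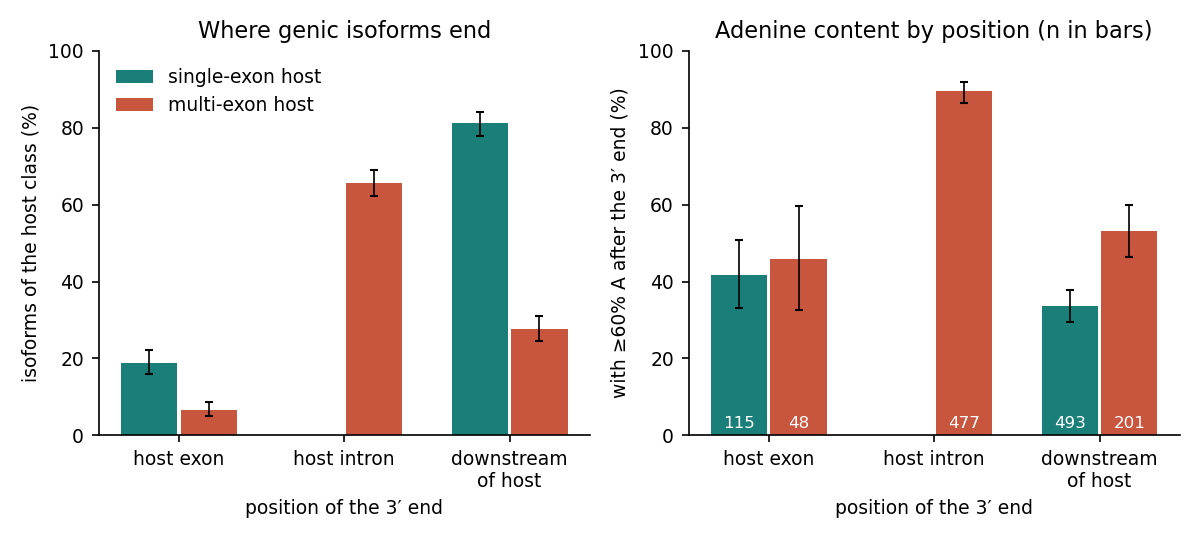
Left, share of each host class (y axis, %) by the position of the 3′ end relative to the host; right, share with at least 60% A after the 3′ end at each position (y axis, %), with the number of isoforms in the bars. Error bars are 95% Wilson intervals, and the 477 isoforms that end in an intron of the host have the highest share, 89.5%.

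Splice sites differed between the classes in the same libraries. Canonical sites alone were found in 66.6% of isoforms of single-exon hosts (62.8 to 70.2) and in 31.8% of isoforms of several-exon hosts (28.5 to 35.3), lower in the latter in 10 of 10 libraries. The share was 86.8% over the other categories, 73.4% for antisense and 58.8% for intergenic isoforms. The genic isoforms used 2889 distinct introns, of which 1001 (34.6%) were GT-AG, 199 (6.89%) GC-AG, 38 (1.32%) AT-AC and 1651 (57.1%) none of these. Within the single-exon class, noncanonical introns made up 33.9% of 513 introns upstream of the annotated exon, 29.3% of 99 introns that lead from it to downstream sequence, and 54.0% of 311 introns wholly downstream. An intron wholly within the annotated exon was noncanonical in 58 of 117 cases (49.6%). Median length was 4397 bp, and 229 introns (7.93%) were over 100000 bp, 121 of them canonical. Another 31 were under 30 bp, and 0 of those were canonical.

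RTS marks went with repeats that could be read in the genome. The mark was set for 31.4% of isoforms of several-exon hosts (28.1 to 34.9) and 14.1% of isoforms of single-exon hosts (11.6 to 17.1), higher in the former in 10 of 10 libraries, against 19.3% in antisense isoforms, 20.9% in intergenic ones and 6.17% over the other categories together. An exact repeat of at least 8 bases at the ends of an intron was found in 197 of 313 marked isoforms on assembled chromosomes (62.9%, 57.5 to 68.1) and in 49 of 998 unmarked ones (4.91%, 3.73 to 6.43). Among marked isoforms 79.6% had a noncanonical intron and 69.6% had at least 60% A, against 44.6% and 54.4% of unmarked ones. The mark itself is set from such repeats, so the first of these relations describes the mark.

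The remaining features ran the same way. A polyA motif was found in 73.4% of isoforms of single-exon hosts and 40.9% of isoforms of several-exon hosts, against 76.7% over the other categories. Among isoforms with a motif, the main signal AATAAA took 54.7% in the single-exon class, 35.0% in the several-exon class and 61.5% in the other categories, and the weaker AAGAAA took 6.5%, 21.2% and 3.97%. The authors marked the 5′ end as overlapping an Ensembl transcript start for 58.2% of the single-exon and 52.8% of the several-exon class. The share was 1.59% for antisense and 3.01% for intergenic isoforms, and the several-exon class was lower in 8 of 10 libraries. The mark is not a match to the start of the annotated host. IRGC PB.15744.5 carried it and began at base 50540268, upstream of its host, which began at 50542124. Coding potential was predicted for 77.0% and 42.3% of the classes, against 91.2% over the other categories. Median open reading frames of the classes were 280 and 133 amino acids. Of the isoforms predicted to code, 28.6% and 60.3% were predicted targets of nonsense-mediated decay, the pathway that removes mRNAs with an early stop codon. That share was 21.9% over the other categories, 32.8% for antisense, 30.6% for intergenic and 26.8% for NNC isoforms.

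**Figure D3:**
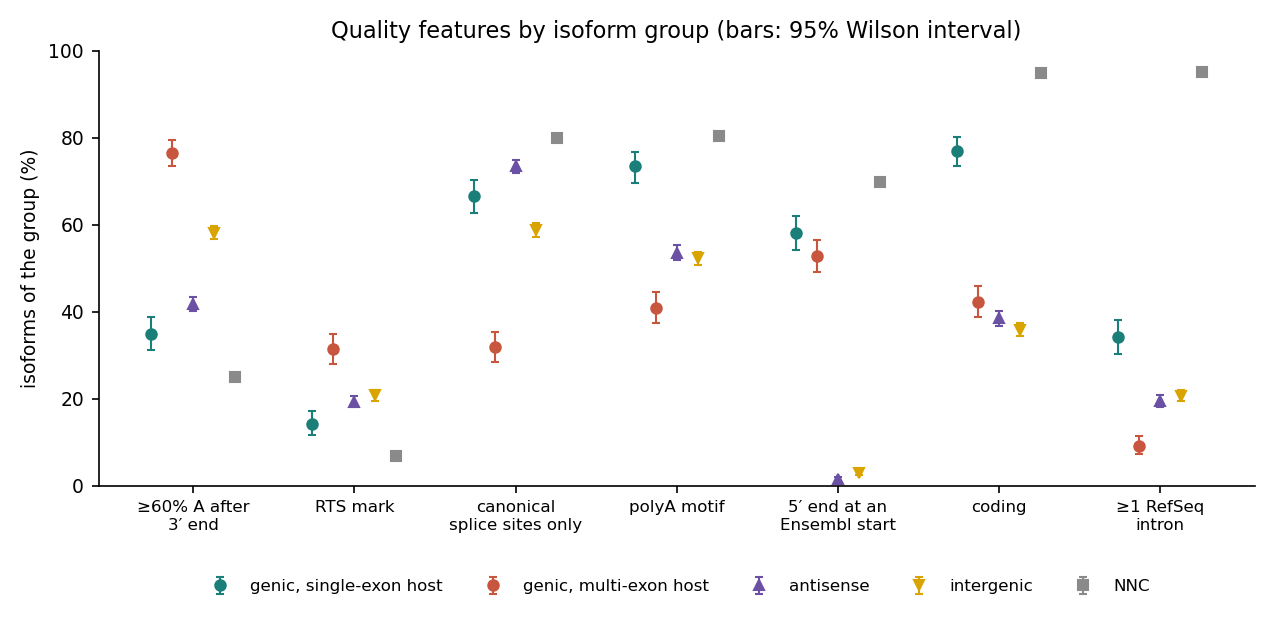
Share of isoforms (y axis, %) with each of 7 features (x axis), for genic isoforms of single-exon hosts, genic isoforms of several-exon hosts, and antisense, intergenic and NNC isoforms. Bars are 95% Wilson intervals, and the several-exon class is the highest of the 5 groups for A content (76.6%) and RTS (31.4%) and the lowest for canonical splice sites (31.8%).

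RefSeq, a second annotation on the same genome build, held part of what Ensembl lacked. At least 1 intron was a RefSeq intron in 34.1% of 590 isoforms of single-exon hosts (30.4 to 38.0) and 9.15% of 721 isoforms of several-exon hosts (7.26 to 11.5). Every intron was in RefSeq for 117 (19.8%) and 20 (2.77%) of these. The shares with at least 1 such intron were 19.4% for antisense, 20.7% for intergenic and 95.1% for NNC isoforms. The gap junction gene GJB2, the non-coding RNA gene TUG1 and the apoptosis-linked BLCAP each had 1 intron, found in RefSeq. MARVELD1, which encodes a membrane protein with a MARVEL domain, and CREBZF, a bZIP transcription factor, had 2 of 2 introns in RefSeq. For all 5 genes the Ensembl model was a single exon. RefSeq held 0 of 1 intron of ENSSSCG00000038099 PB.5984.6 and of TSSK2 PB.6175.1, and 0 of 2 of ENSSSCG00000060301 PB.5384.2.

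All 4 of canonical splice sites, no RTS mark, a polyA motif and under 60% A were met by 324 genic isoforms (24.3%), 260 of single-exon hosts (42.8%) and 64 of several-exon hosts (8.82%). These 324 held 8798 of the 16202 genic reads (54.3%). Antisense isoforms met all 4 in 30.7%, intergenic in 25.3% and the other categories together in 56.2% of cases. At the other end, 337 genic isoforms (25.3%) combined a noncanonical intron, at least 60% A and no motif, and they held 1215 reads (7.5%). Of these 337, 281 were isoforms of several-exon hosts. Of the genic isoforms 736 (55.2%) rested on 2 full-length reads, the lowest number in the table, against 57.9% of antisense, 63.6% of intergenic and 38.4% of all other isoforms. Weighted by reads, at least 60% A fell to 26.9%, the RTS mark to 14.8%, and canonical sites stood at 76.9%.

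Across Iso-seq libraries of 231413 to 458697 reads, 243 to 388 genic isoforms were detected. Genic reads took 0.717% of BMI testis and 0.65% of DSE testis. The other 8 libraries lay between 0.3% and 0.503% (0.399% ± 0.0749, SD, n = 8), so both testis libraries lay above all others. The difference lay with single-exon hosts, which took 0.589% and 0.559% of testis reads and 0.186% to 0.333% elsewhere. Several-exon hosts took 0.128% and 0.0915% in testis, within their range in the other glands. As a share of isoforms detected, genic isoforms had a mean of 0.773% in testis against 0.85% ± 0.108 (SD, n = 8) in the others. Counting an isoform from 2 reads turned that order, with 0.724% against 0.707%. Genic isoforms of DSE testis had the lowest shares of at least 60% A (30.8%) and RTS (10.7%), and those of DSE bulbourethral gland had the highest (69.1% and 28.4%). The same libraries were lowest and highest over all other categories (18.8% and 33.1% for at least 60% A, 4.54% and 5.75% for RTS), so the order is one of the libraries and not of genic isoforms alone.

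**Figure D4:**
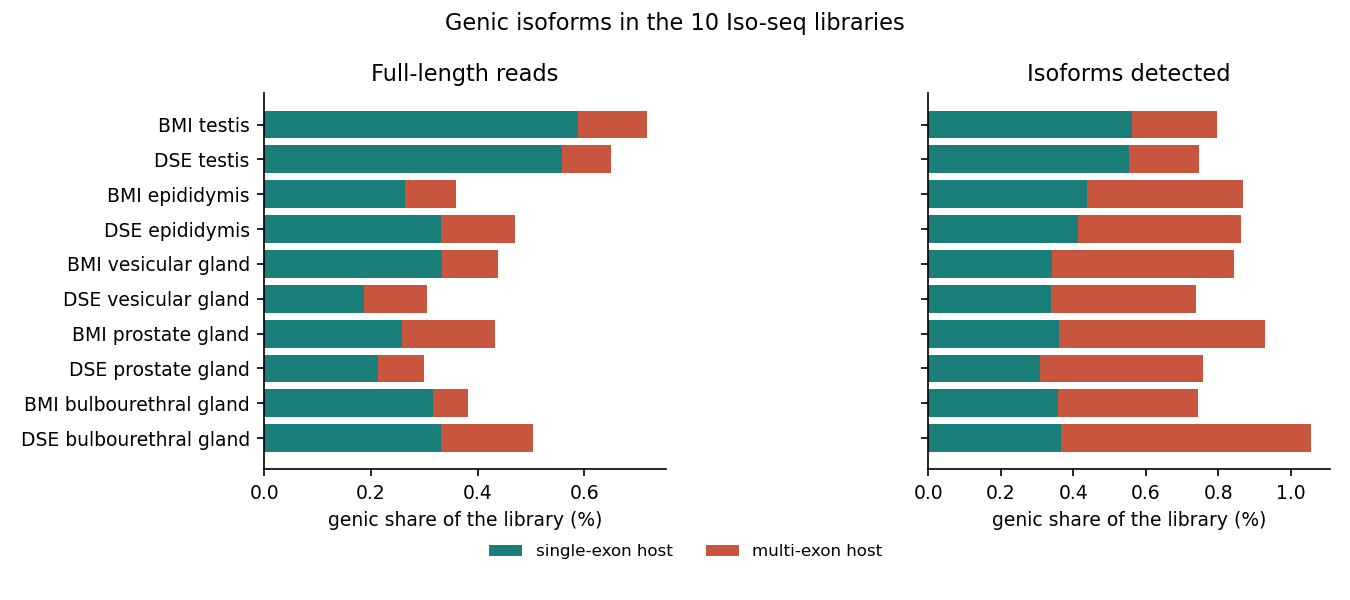
Genic share of the full-length reads (left, %) and of the isoforms detected (right, %) in each of the 10 Iso-seq libraries, stacked by host class. The testis libraries reach 0.717% and 0.65% of reads and the others at most 0.503%, while the highest share of isoforms, 1.06%, is in DSE bulbourethral gland.

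Genic isoforms were seen in few libraries: 430 (32.2%) in 1 library, against 19.8% of the other categories, and 25 in all 10. Of these 25, 22 had a single-exon host. Testis carried several of the most read ones. IRGC PB.15744.5, from a gene of the immunity-related GTPase family, had 225 reads in BMI testis, 362 in DSE testis and 0 in the other 8 libraries. A second IRGC isoform, PB.15744.2, had 157 and 290 in testis and 2 elsewhere. ENSSSCG00000060301 PB.5384.2 had 143 and 199 in testis and 0 elsewhere. For these 3 isoforms both testis libraries lay far above every other library. ENSSSCG00000038099 PB.5984.6 had 286 and 93 reads in testis and 1 elsewhere, and 90% of the bases after its 3′ end were A. ENSSSCG00000026817 PB.11739.5, a coding gene without a symbol, had 243 and 204 in testis and at most 3 in any other library. In RNA-seq IRGC PB.15744.5 had 172, 116 and 75.2 TPM (the abundance unit explained with the RNA-seq results) in BMI testis and 68.3, 39.4 and 117 in DSE testis, against at most 1.28 elsewhere. ENSSSCG00000038099 PB.5984.6 had 56.4, 59.2 and 59.2 in BMI testis and 20.7, 14.5 and 45.7 in DSE testis, against at most 0.818 elsewhere. Testis lay above all other libraries for both.

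Read counts were tested with edgeR's quasi-likelihood test, testis against the mean of the other glands with the breeds as replicates. A call needed a change of 1 or more on the log2 scale with a p, adjusted by Benjamini-Hochberg, under 0.05. Of 174 genic isoforms with at least 10 reads, 69 were called higher in testis (39.7%), against 22.6% of all 27780 isoforms tested. Called lower were 10 (5.75%), against 4.43%. By host class, 57 of 128 and 12 of 46 were called higher. The median log2 fold change was 0.242 over the members and -0.133 over all isoforms. IRGC PB.15744.5 was at least 548-fold higher in testis and ENSSSCG00000060301 PB.5384.2 at least 319-fold, taking 3 reads over the 8 libraries as the floor. Both reached the minimum of 10 reads through testis alone and had to differ, so these are descriptions with no p. Without BMI testis 41 were called and without DSE testis 45. DESeq2 gave no adjusted p for 77 of the 174 and called 17 of the other 97 (17.5%), against 15.2% of all 15392 isoforms with one, so the excess of genic isoforms over all isoforms was smaller with that tool.

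Other much-read isoforms were found across glands. ZHX1 PB.12957.9, from a zinc finger and homeobox repressor gene, had 10 to 112 reads in every library and 575 in all. TUG1 PB.6096.282 had 20 to 71, BLCAP PB.8961.5 had 15 to 86 and CREBZF PB.19579.3 had 19 to 70. These isoforms did not pass the test between testis and the other glands in edgeR (adjusted p 0.129, 0.519, 1.0 and 0.196). GJB2, which encodes the channel protein connexin 26, had 201 and 143 reads in bulbourethral gland, 30 in DSE prostate gland, 2 in BMI prostate gland, 1 and 2 in epididymis, 0 and 1 in vesicular gland and 0 in testis. It was lower in testis than in the mean of the other glands, a mean set by bulbourethral gland. It reached the minimum of 10 reads through those other glands alone, so this is a description with no p. Its testis reads did not stand apart from those of epididymis and vesicular gland. MARVELD1 PB.6675.1 had 6 and 13 reads in testis and was called lower there at a log2 fold change of -2.16 (edgeR, adjusted p 0.022), although DSE vesicular gland had 3. ENSSSCG00000007188 PB.8847.23 was of another kind: 36 exons, an RTS mark, and 118 of its 269 reads in DSE vesicular gland and 131 in BMI prostate gland. ZHX1 PB.12957.1, which ends at the run of A shown above, had 6 to 22 reads in every library.

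Host genes with many genic isoforms differed in what those isoforms were. The lncRNA gene ENSSSCG00000061832 on chromosome 16 had 11 with 81 reads, 9 with canonical sites and 8 with at least 60% A. ENSSSCG00000058549 had 10 with 96 reads, of which 47 and 47 were in testis, 9 with at least 60% A and 0 with a polyA motif. ENSSSCG00000026817 had 9 with 544 reads and ENSSSCG00000022044 had 9 with 307 reads, all from testis in the latter. In both of these hosts 9 of 9 isoforms had a polyA motif, and 0 and 1 had at least 60% A. CREBZF had 8 with 587 reads spread over the 10 libraries, 7 of them canonical.

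Of the gene lists, spermatid and sperm genes held 2 hosts among 31 annotated genes: CABS1, a calcium-binding spermatid protein gene, and TSSK2, a spermatid kinase gene. They had 3 genic isoforms with 305 reads, all with canonical sites, and 3 of 3 were called higher in testis in RNA-seq, where 28.4% of all transcripts and 38.2% of genic isoforms tested were. Hosts made up 2.62% of all annotated genes, so these host counts are read against that share. Meiosis genes (17 annotated) and steroid synthesis genes (12) held 0 hosts. Among 24 genes of the secretory path, CANX, HSPA5 and SSR3 were hosts, with 4 isoforms, 8 reads in all and at least 60% A in 4 of 4. The splicing factor genes SRSF4 and TRA2A (of 29) and the matrix gene FN1 (of 14) had 2 genic isoforms each list, with at least 60% A in 2 of 2 and 0 of 2.

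In RNA-seq, abundance was given in TPM, in which the values of a library's transcripts, each corrected for length, add up to the same fixed total. The program salmon divides reads among isoforms that share exons. One library carried markers of both prostate and vesicular gland. BMI prostate gland replicate 2 held 228000 TPM of the vesicular gland markers AWN, PSP-I and PSP-II, where the median over the 6 prostate libraries was 7.69, and 88600 TPM of the prostate marker MSMB, against 103000 to 178000 in the other prostate libraries and at most 104 outside prostate gland. BMI epididymis replicate 1 held 5380 TPM of the vesicular gland markers, where the epididymis median was 99.6. DSE testis replicate 2 was lowest among testis libraries in testis markers, 65400 TPM against a median of 88100. PRM1, TNP1, INSL3 and ODF1 in testis, CRISP1 and ADAM7 in epididymis, the 3 spermadhesins in vesicular gland and MSMB in prostate gland were higher in each library of the labelled gland than in any other. GPX5 and ACP3 were not, LCN5 and AQN-1 are absent from the table, and no bulbourethral markers were listed.

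The TPM table held 1288 genic isoforms, and 516 reached at least 1 TPM in at least 3 of the 30 libraries. These were 371 of single-exon hosts (61.0% of their class) and 145 of several-exon hosts (20%). Of the 324 isoforms that met all 4 quality criteria 261 passed (80.6%), and of the other genic isoforms 25.2%. Members that pass the minimum only through the gland where they are high had to differ between glands, so the shares below are set beside those of all transcripts under the same minimum, and named isoforms of that kind are given with no p. Reads in Iso-seq did not ensure TPM. Of 174 members with at least 10 reads 36 missed the minimum, and of 53 with at least 50 reads 7 missed it. ZHX1 PB.12957.9 with its 575 reads had at most 0.271 TPM in any library, while PB.12957.8 of the same gene, with 2 reads, reached 21.3 TPM. ENSSSCG00000007188 PB.8847.23 was listed at 0 in 28 libraries and reached 0.312. The others were RBM15B PB.4338.4, OGT PB.21363.93, NFE2L2 PB.7508.28, CEBPB PB.9087.2 and ENSSSCG00000055020 PB.20629.11, named after their values were seen.

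Where the host was a single exon in Ensembl, the genic isoforms often took most of its TPM. In 234 such genes of at least 1 TPM, the median genic share in the gland of highest level was 89.6% (quartiles 51.7 and 100). The share was at least 50% in 181 genes (77.4%), at least 90% in 115 and under 10% in 17. It was 100% for LELP1, MARVELD1 and SLC5A3, 82.6% for ZHX1, 67.9% for CREBZF, 55.9% for TSSK2, 50% for BLCAP, 41.0% for GJB2 and 22.7% for IRGC. The remainder went to the Ensembl transcripts of the gene.

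Summed over all genic isoforms, TPM were 6190 to 11500 in testis (median 10970) and 7070 to 16500 in epididymis (median 10580). The vesicular gland libraries had 2090 to 3240, those of prostate gland 2220 to 2780 and those of bulbourethral gland 3140 to 3870. Each testis and epididymis library lay above each library of the other 3 glands. In TPM a few very abundant transcripts lower all others, and the 10 highest took 47.3 to 64.7% of the total in vesicular, 41.4 to 56.2% in prostate and 26.4 to 42.5% in bulbourethral gland libraries, against 12.7 to 19.9% in testis and 9.24 to 22% in epididymis. With each library rescaled without its 10 highest transcripts, an alternative chosen after seeing the data, genic isoforms summed to 7730 to 13200 in testis and 7790 to 21100 in epididymis. They summed to 5180 to 6790 in vesicular, 4750 to 5870 in prostate and 4740 to 5980 in bulbourethral gland. Testis and epididymis libraries lay above the rest on this scale too, by a smaller margin. The lowest testis value, 6190, was that of DSE testis replicate 2. In epididymis ENSSSCG00000039911 PB.5746.3 alone took 32.6% of the genic TPM. Some short genic isoforms, chosen here after their values were seen, were high in bulbourethral gland and as high or higher elsewhere. In bulbourethral gland TMEM238 PB.16022.1 had 410 to 628 TPM and DPM3 PB.13590.1, from a subunit gene of the dolichol-phosphate mannose synthase, 348 to 546. ND6 PB.20974.4 of the mitochondrial genome, a complex I subunit gene, varied from 69.5 to 651 there, and it carried an RTS mark. Mean levels of the 3 were 487, 408 and 390 TPM in bulbourethral gland against 562, 638 and 562 in epididymis, and ND6 averaged 515 in testis.

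Gland differences were fitted with limma on log2(TPM + 1), each gland against the mean of the other 4, for all 64661 transcripts past the minimum. The thresholds for a call were those of the Iso-seq test. This scale understates the change of low transcripts. In testis 197 of 516 genic isoforms were called higher (38.2%, against 28.4% of all transcripts) and 64 lower (12.4%, against 9.53%). Called higher were 163 of 371 isoforms of single-exon hosts (43.9%) and 34 of 145 of several-exon hosts (23.4%). Of the 197, 157 (79.7%) had their 6 testis libraries above the other 24, against 56.6% of all transcripts called higher in testis. In whole glands, fewer cells of a type and less RNA per cell cannot be told apart. Of the 138 members tested in both assays, 67 were higher in testis by Iso-seq and 70 by RNA-seq, and 66 by both, which is 98.5% and 94.3% of each list. Over all 14366 isoforms tested in both, the shares were 90.1% and 78%.

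In epididymis 81 were higher (15.7%, against 9.63%) and 54 lower (10.5%, against 4.4%). Vesicular gland had 23 higher (4.46%, against 2.49%) and 95 lower (18.4%, against 13.4%). Prostate gland had 13 higher (2.52%, against 2.6%) and 72 lower (14%, against 6.56%), and bulbourethral gland 46 higher (8.91%, against 6.37%) and 84 lower (16.3%, against 6.46%). Median log2 fold changes over the members were 0.043 for testis, -0.064 for epididymis, and -0.453, -0.336 and -0.327 for the vesicular, prostate and bulbourethral glands. Over all transcripts they were 0.059, 0.081, -0.398, -0.211 and -0.076. Scaling by size factors moved the median of all transcripts to -0.147 for epididymis, -0.204 for vesicular and -0.191 for bulbourethral gland. It gave 52 higher and 67 lower in epididymis, so that higher calls went from 60% to 43.7% of the members called, where 5.34% and 6.11% of all transcripts were called. In vesicular gland it gave 37 and 69, from 19.5% to 34.9%, where 5.24% and 7.06% of all were called. A pseudocount of 0.1 raised the higher calls to 41 in vesicular gland (7.95%, against 4.33% of all) and 23 in prostate gland (4.46%, against 5.32%). It raised the lower calls to 121, 130, 227, 179 and 192 in the order testis, epididymis, vesicular, prostate and bulbourethral gland, where 19.9%, 12.1%, 31.2%, 17.3% and 17.3% of all transcripts were lower. Of the members called higher, 23 did not overlap with other glands for epididymis (28.4%, against 14.4% of all transcripts called higher), 4 for vesicular gland (17.4%, against 9.7%), 0 for prostate gland (against 4.22%) and 8 for bulbourethral gland (17.4%, against 15.1%). Without BMI prostate gland replicate 2 the counts called higher were 197, 79, 23, 16 and 45 in the order testis, epididymis, vesicular, prostate and bulbourethral gland.

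LELP1 PB.13645.55, from a small proline-rich protein gene related to those of the cornified envelope, had the largest fold change among the 157 testis calls without overlap. It had 1770, 1690 and 1780 TPM in BMI testis and 1460, 546 and 1620 in DSE testis, against at most 22.6 elsewhere. C16orf82 PB.11793.2 had 243 to 1070 TPM (median 920), against at most 10.8, with 3 full-length reads. TSSK2 PB.6175.1, whose intron ends carry the 10-base repeat shown above, had 127 to 620 (median 548), against at most 1.63, with 3 full-length reads. Groups did not overlap for any of the 3, and the lowest testis value was that of DSE testis replicate 2 each time. The highest value outside testis was that of BMI epididymis replicate 2, which also held the most testis marker TPM outside testis, 930. The part of that RNA in these values was not tested. Log2 fold changes were 9.9 ± 0.41 for LELP1 and 9.28 ± 0.31 for C16orf82 (SE; limma, adjusted p 1.81e-16 and 2.78e-18). For TSSK2, which passed the minimum only through testis, it was 8.6 ± 0.2 (SE).

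Epididymis held the highest genic isoform of the series. ENSSSCG00000039911 PB.5746.3, predicted not to code and with its 1 intron in RefSeq, had 1970, 2650 and 8260 TPM in BMI and 4080, 2850 and 2680 in DSE. No other library exceeded 11.2 TPM. All of its 17 full-length reads came from DSE epididymis, with 0 in the BMI epididymis Iso-seq library, while the RNA-seq values of the breeds overlapped. ENSSSCG00000007224 PB.8857.1 spread widely within epididymis, from 89.7 to 6810 TPM (median 950), against at most 0.748 elsewhere. This second isoform rested on 3 full-length reads, all from BMI epididymis. RTL5 PB.21375.6, from a retrotransposon-derived gag-like gene, had 92.1 to 271 TPM (median 249), and vesicular gland reached 82.7. Its introns were CG-CG and GT-AG, and it rested on 2 full-length reads, 1 from BMI testis and 1 from BMI epididymis. All 3 lay above the other 24 libraries, RTL5 narrowly. The lowest RTL5 value was that of DSE epididymis replicate 1, the library that the study's quality measures place lowest in RNA integrity. Without it the log2 fold change of RTL5 was 5.13, and the counts called higher were 196, 81, 23, 11 and 46 in the order testis, epididymis, vesicular, prostate and bulbourethral gland. Log2 fold changes were 10.84 ± 0.31 for ENSSSCG00000039911 and 4.89 ± 0.37 for RTL5 (SE; limma, adjusted p 6.73e-18 and 5.9e-10). For ENSSSCG00000007224, which passed the minimum only through epididymis, it was 9.23 ± 0.46 (SE).

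In vesicular gland the isoform of PSP-I, which encodes a spermadhesin of boar seminal plasma, was called higher. PB.6866.105 had 39.4, 50.4 and 74.9 TPM in BMI and 50.6, 130 and 115 in DSE. Its introns were AC-AT and GT-TG, it was marked RTS, and it rested on 2 full-length reads. ENSSSCG00000029257 PB.11472.7 had 14.1 to 114 TPM (median 68.6), 2 noncanonical introns and 5 full-length reads. It was not marked RTS, although its second intron carried a repeat of 24 bases, and 70% of the bases after its 3′ end were A. SLC5A3 PB.5539.1, from the sodium and myo-inositol cotransporter gene, had 13.8 to 29.7 TPM (median 23.7). It was marked RTS, although its intron was GT-AG and in RefSeq, and of its 313 full-length reads 60 and 53 were from vesicular gland, 95 from BMI epididymis, 92 from BMI prostate gland and 0 from DSE prostate gland. The highest of the other 24 libraries was BMI prostate gland replicate 2 for all 3, at 12.7, 10.9 and 8.82 TPM, the library with the vesicular gland markers. The part of that RNA in these values was not tested. Log2 fold changes were 5.27 ± 0.45 for ENSSSCG00000029257 and 3.16 ± 0.25 for SLC5A3 (SE; limma, adjusted p 5.75e-09 and 2.52e-09). For the PSP-I isoform, which passed the minimum only through vesicular gland, it was 5.95 ± 0.33 (SE).

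GJB2 PB.2804.1 was higher in bulbourethral gland. It had 100, 95.4 and 95.2 TPM in BMI and 101, 104 and 90.5 in DSE, prostate gland had 7.18 to 44.3, epididymis 0.768 to 26.8 and testis at most 0.231. ENSSSCG00000054603 PB.3853.9 had 72.4 to 262 TPM (median 196), against at most 22.3, and both of its full-length reads came from BMI testis. CLDN22 PB.7163.3, from a tight junction claudin gene, had 17 to 52.9 TPM (median 23.4), against at most 0.999, with 3 reads and the A run shown above. Groups did not overlap for these 3. Log2 fold changes were 4.83 ± 0.44 for GJB2 and 4.84 ± 0.26 for ENSSSCG00000054603 (SE; limma, adjusted p 1.04e-08 and 9.95e-13). For CLDN22, which passed the minimum only through bulbourethral gland, it was 4.58 ± 0.13 (SE). No genic isoform called higher in prostate gland lay above all other libraries.

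**Figure D5:**
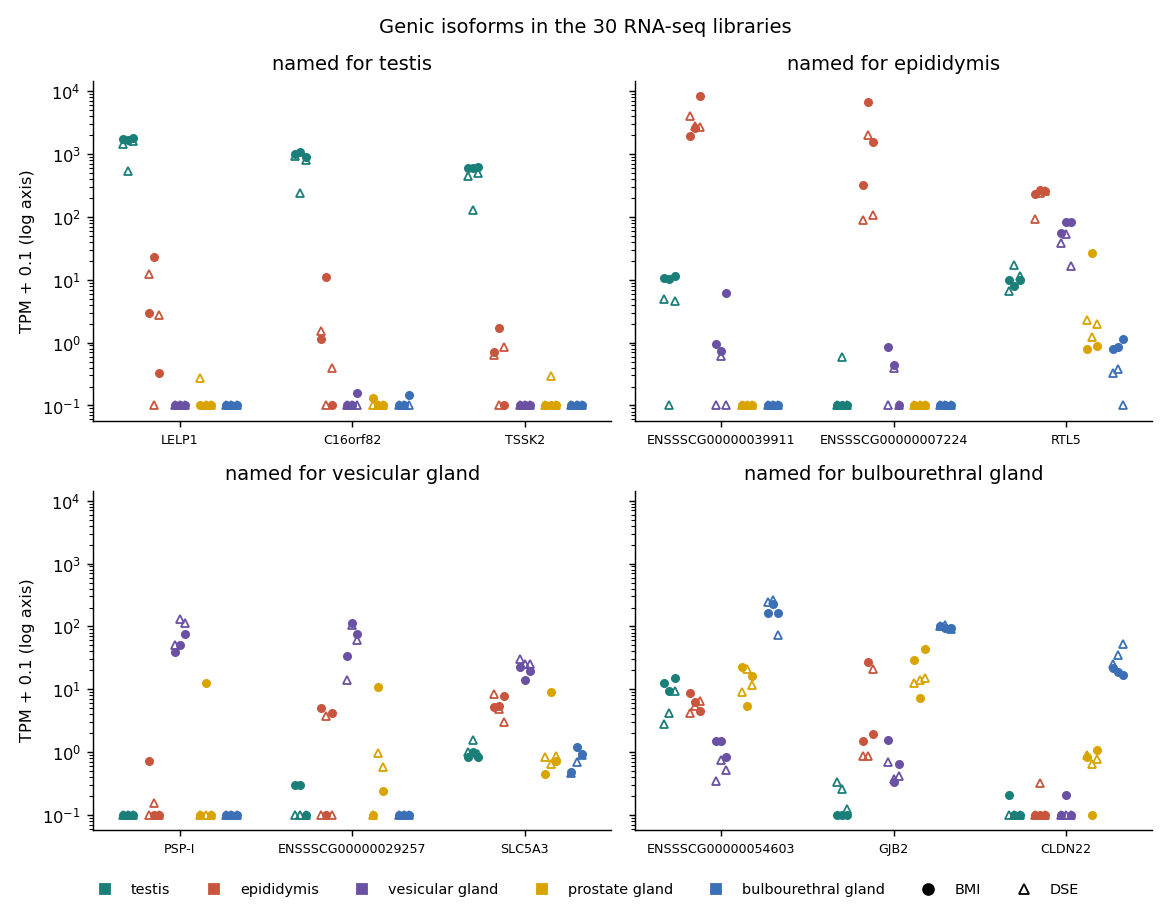
TPM + 0.1 (y axis, log scale) of the 12 isoforms named for a gland, by host gene, in each of the 30 RNA-seq libraries. Colours give the gland, filled circles BMI and open triangles DSE, and in each panel all 6 libraries of the named gland lie above the other 24.

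Within a gland, calls between the breeds were few and depended on the fit. In testis 2 of 327 were called higher in DSE (0.612%, against 0.213% of all transcripts) and 3 lower (0.917%, against 0.48%), with limma on the 6 libraries of the gland. At an unadjusted p under 0.05 there were 60 of 327 in testis (18.3%, against 11.8% of all transcripts) and 26 of 176 in prostate gland (14.8%, against 18.7%), and one fit of all glands called 55 of 516 in testis (10.7%, against 4.96% of all transcripts). The median difference was -0.305 on the log2 scale over the members and -0.165 over all transcripts. ATP6V1E2 PB.12462.5, from the gene of a proton pump subunit, had 33.3, 29.3 and 51 TPM in BMI and 0.775, 0.55 and 1.35 in DSE. The other transcripts of the gene had 94.4, 72.9 and 109 in BMI and 28.8, 35.7 and 108 in DSE. TEX47 PB.19951.1, from a testis-expressed gene, had 60.3, 71.8 and 67.9 in BMI and 13.8, 7.72 and 13.9 in DSE, and the other transcripts of its gene had 85.8, 92.7 and 93.3 against 57.1, 17.9 and 79.6. ENSSSCG00000034801 PB.14179.1, with a GG-TT intron and an RTS mark, had 52.2, 65 and 57.7 in BMI and 4.99, 11.8 and 4.07 in DSE. The other transcripts of that gene had 32.2, 17.9 and 17.4 in BMI and were listed at 0 in the 3 DSE libraries. None of the 3 overlapped between breeds, and full-length reads were 4, 3 and 8 in BMI testis and 0 in DSE testis. Differences, DSE minus BMI on the log2 scale, were -2.44 ± 0.33 for TEX47 and -3.02 ± 0.41 for ENSSSCG00000034801 (SE; limma, adjusted p 0.0267 and 0.0271). For ATP6V1E2, which passed the minimum only through BMI, it was -4.34 ± 0.34 (SE). TEX47 kept its call in 3 of 5 other settings of the fit and ENSSSCG00000034801 in 2 of 5. Each lost its call in 5 of 6 fits without 1 library.

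The 2 higher in DSE were low or absent in BMI and passed the minimum only through DSE, so their values are a description with no p. GALNT4 PB.15058.23, from a gene of an enzyme that starts mucin-type O-glycans, had 0, 0.128 and 0 TPM in BMI and 3.81, 7.37 and 3.93 in DSE. The difference was 2.49 ± 0.33 (SE), and the other transcripts of the gene had 0.685, 1.38 and 0.934 against 6.0, 16.7 and 9.11. Its 2 full-length reads came from DSE prostate gland and BMI bulbourethral gland, and none from testis. PB.11375.2, under the joined label ENSSSCG00000036348_ENSSSCG00000053239, was listed at 0 in the 3 BMI libraries and had 155, 24.9 and 126 TPM in DSE, with 2 full-length reads, both in DSE testis, and 100% A after its 3′ end. The other transcripts under that label had 15.9, 21.2 and 18.2 in BMI and 78, 17.3 and 51.8 in DSE. Leaving out any of the 3 BMI testis libraries left 0 calls in testis, leaving out DSE replicate 1 or 3 left 2, and leaving out DSE replicate 2 left 5. In prostate gland EIF4EBP2 PB.6381.8, from a repressor of translation, was the 1 call of 176 higher in DSE (0.568%, against 0.36%), and 0 were lower (against 0.126%). It was listed at 0 in BMI and had 5.5, 4.45 and 3.01 TPM in DSE, through which alone it passed the minimum, with an RTS mark. Its 2 full-length reads came from DSE vesicular gland and BMI prostate gland, with 0 in DSE prostate gland, while 2 of the 3 BMI bulbourethral gland libraries had 5.79 and 11 TPM. Without BMI prostate gland replicate 2 the count was 2, and without any other of the 6 it was 0. One fit of all glands called 0 of 516 in prostate gland, against 0.455% of all transcripts. The other transcripts of EIF4EBP2 had 39.8, 28.2 and 45.7 TPM in BMI prostate gland and 39.4, 45.9 and 41.1 in DSE prostate gland.

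In epididymis, vesicular gland and bulbourethral gland limma called 0 of 254, 173 and 198 genic isoforms between breeds, where 9, 23 and 9 had an unadjusted p below 0.05. These were 3.54%, 13.3% and 4.55% of the members, against 3.03%, 12.1% and 6.26% of all transcripts. The shares of all transcripts called were 0.00288% higher and 0% lower in epididymis, 0.11% and 0.134% in vesicular gland, and 0.0899% and 0.103% in bulbourethral gland. One fit of all glands called 6, 5 and 1 of 516 members there, against 0.707%, 0.37% and 0.441% of all transcripts. A pseudocount of 0.1 gave 2 in epididymis and 1 in vesicular gland, against 0.32% and 0.645% of all. In Iso-seq edgeR called 0 of 174 between breeds over the glands, against 0.119% called higher and 0.184% lower over all isoforms. At an unadjusted p below 0.05 there were 12 (6.9%), against 4.52% of all isoforms. DESeq2 called 0 of the 64 members to which it gave an adjusted p, against 0.262% of all isoforms with one, and gave none to the other 110. It had 3 of the 174 members at an unadjusted p below 0.05, a count with no share over all isoforms to read it against.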

How the data were processed

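Iso-seq (10 libraries) and RNA-seq (30 libraries) covered 5 glands of 2 breeds, grouped by the sample titles. Full-length read counts were made by the authors from polyA-tailed SMARTer cDNA with IsoSeq3, GMAP, cDNA_Cupcake and SQANTI3 on Sscrofa11.1, and the percent A after each 3′ end is SQANTI3's, as deposited. TPM values were made by the authors with STAR 2.7.10a and Salmon 1.9.0 on Ensembl transcripts merged with isoforms that are not Ensembl matches or fragments, and as deposited they sum to the same total in each library. The RNA-seq kit does not mark strand, so overlapping antisense genes cannot be told apart. The labels name rRNA depletion and the methods of the study name poly-T beads. TPM hold no read totals, and RNA-seq depth was not analysed here. Iso-seq libraries held 231413 to 458697 reads. Coding prediction and the 5′ end match are the authors' columns.

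Hosts, introns, repeats and sequence were taken from the deposited transcript models, Ensembl transcripts and the Sscrofa11.1 genome with its RefSeq annotation. limma 3.58.1 was run on log2(TPM + 1) for transcripts that reached 1 TPM in 3 or more libraries, for glands with breed as a term and for breeds within a gland. edgeR 4.0.16 (quasi-likelihood) was run on read counts of isoforms with at least 10 reads. P-values were adjusted over all features by the Benjamini-Hochberg method, and scripts were tested on simulated data. The alternatives were other pseudocounts, filters, scaling, blocks and tools (DESeq2 1.42.0) and left-out libraries.

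Named isoforms were the 10 with most reads, up to 3 per gland by fold change among calls without overlap, all breed calls where at most 5 were called, 5 hosts with most genic isoforms, and the most read with all quality features, an RTS mark or at least 80% A. Members and lists were chosen with earlier results of these data known. R 4.3.3 and Python 3.11.15 were used. A withheld item among the marker genes is not reported here.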

Additional observations from a re-analysis of the deposited data

Results flagged for a closer look

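Dixon's test was run on 34 groups, of 6 RNA-seq libraries or of the 8 Iso-seq libraries outside testis. Chance flags about 1 group in 20, and these groups share libraries and measures, so their flags are not independent. In 10 of the groups, all of RNA-seq, 1 library lay far from the other 5. DSE testis replicate 2 was the lowest in 7 of them. It held 6190 TPM of all genic isoforms, 5780 TPM of those of single-exon hosts and 410 TPM of those of several-exon hosts, and 277 genic isoforms reached 1 TPM there. The same library was lowest for LELP1 (546 TPM), C16orf82 (243 TPM) and TSSK2 (127 TPM), and it was lowest in testis markers (65400 TPM). Without it 195 genic isoforms were called higher in testis (limma), against 197 with it. In epididymis ENSSSCG00000039911 reached 8260 TPM in BMI replicate 3, ENSSSCG00000007224 reached 6810 TPM in BMI replicate 2, and RTL5 had 92.1 TPM in DSE replicate 1, the library of lowest RNA integrity by the study's quality measures.

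The breed difference in testis, set against the mean breed difference in the other 4 glands, stood apart for 4 isoforms. On the log2(TPM + 1) scale the differences of differences, DSE minus BMI, were -4.48 ± 0.27 for ATP6V1E2, -2.95 ± 0.27 for ENSSSCG00000034801 and -2.39 ± 0.21 for TEX47 (SE from limma in each case), and 6.29 for PB.11375.2, listed at 0 in BMI testis, which is no fold. These isoforms were chosen for their breed call in testis and had at most 1.04 TPM in any of the 24 libraries of other glands, so the choice fixed this outcome, and the values are a description with no test.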

How the results depend on the processing

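With a pseudocount of 0.1, 41 genic isoforms were called higher in vesicular gland (7.95%, against 4.33% of all transcripts) and 23 in prostate gland (4.46%, against 5.32%). Breed calls were then 2 in epididymis (0.787%, against 0.32%), 1 in vesicular gland (0.578%, against 0.645%) and 4 in prostate gland (2.27%, against 0.987%). Size factors gave 52 higher in epididymis and 37 in vesicular gland. Without the filter, breed calls were 2 in testis (0.192%, against 0.207% of all transcripts), 2 in epididymis (0.184%, against 0.0112%) and 4 in prostate gland (0.406%, against 0.17%). One fit of all glands gave 55 breed calls for testis, 6 for epididymis, 5 for vesicular, 0 for prostate and 1 for bulbourethral gland. These were 10.7%, 1.16%, 0.969%, 0% and 0.194% of the members, against 4.96%, 0.707%, 0.37%, 0.455% and 0.441% of all transcripts. DESeq2 called 17 higher in testis Iso-seq. Weighted by reads, at least 60% A, RTS and canonical sites stood at 26.9%, 14.8% and 76.9%, and over isoforms with at least 5 reads at 41.2%, 14.1% and 68.8%. At the 80% A threshold the share was 41.6%. Counting an isoform in a library from 2 reads gave a mean genic share of 0.707% outside testis and 0.724% in testis, against 0.85% and 0.773%. With each library rescaled without its 10 highest transcripts, chosen after seeing the data, the median genic TPM was 6433 in vesicular, 4957 in prostate and 5667 in bulbourethral gland, against 2452, 2560 and 3586. For these the cause was not tested.

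Correlations between the deviations of same-numbered libraries ran from -0.365 to 0.441. Across glands they were all positive for BMI replicate 2 (0.005 to 0.221) and DSE replicate 3 (0.023 to 0.209), and of both signs for the other replicates. They cannot show whether such libraries share an animal. The numbers were treated as names and not as pairs, with a replicate block as an alternative. With the replicate block, breed calls were 2 in testis and 0 in prostate gland, and counts called higher in a gland were 197, 80, 23, 12 and 45 in the order testis, epididymis, vesicular, prostate and bulbourethral gland.

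Leaving out 1 library at a time gave 190 to 197, 76 to 85, 21 to 26, 10 to 16 and 42 to 47 in that order. Breed calls ranged from 0 to 5 in testis, with 0 without any of the BMI replicates, and from 0 to 2 in prostate gland. Iso-seq testis calls ranged from 41 to 70 and Iso-seq breed calls from 0 to 1. All 420 alternative values of the 12 named gland differences kept direction and side of the threshold. The 12 were chosen for large changes without overlap between libraries, so little else was possible and this is no support. Of 57 alternative values of the 6 named breed differences, 26 kept both, 31 lost significance and 0 reversed. GALNT4, PB.11375.2 and EIF4EBP2 missed the minimum once a DSE library was left out, so the 57 do not include those runs. Many genic isoforms rest on 2 reads, Iso-seq has 1 library per breed and gland, and 46 genic isoforms are not in the TPM table.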
